A study of Mus musculus with 11 samples.

Results

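Areg encodes amphiregulin and Hbegf encodes heparin-binding EGF-like growth factor, both ligands of the epidermal growth factor (EGF) receptor. Both genes were found by name in the deposited table of mouse gingival epithelium, as 2 of its 178 named genes (Areg, ENSMUSG00000029378, and Hbegf, ENSMUSG00000024486). RNA came from 11 libraries of male B6 mice. In the removal group (n = 4) a silk thread tied round both upper second molars had been taken off on day 3, in the ligature group (n = 3) the thread was left in place, and naive mice (n = 4) had none. The labels give no age, no collection day and no statement that libraries of a group are separate animals, and the p-values here reflect only library-to-library spread, which may be technical. The design asks how the epithelium differs while the thread is present and how it differs once the thread is gone.

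EGF receptor ligands are made as membrane-anchored precursors that proteases of the ADAM family, chiefly ADAM17, cut free at the cell surface. The released ligand binds the receptor on the same or a neighbouring cell and starts the MAP kinase cascade, which switches on immediate early genes such as Fos and Egr1 and then their feedback inhibitors. Amphiregulin is known as an autocrine growth factor of keratinocytes and is also made by immune cells during tissue repair. Heparin-binding EGF-like growth factor also binds heparan sulfate and is known for its part in keratinocyte migration during wound closure.

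The table was a selected one: when refitted in DESeq2 with a library set term, its genes all reached 0.0103 or less as an unadjusted p in at least 1 of the comparisons with naive. A count of calls within it is therefore read against the share of all its genes called, and directions are not independent evidence. The counts of the 178 genes summed to 282274 to 503570 per library; these sums are not the depth, which is unknown. The libraries fell into 2 sets that were read from the deposited batch correction. Set A held removal replicates 2, 3 and 4, ligature replicate 1 and naive replicates 1 and 2. Set B held removal replicate 1, ligature replicates 2 and 3 and naive replicates 3 and 4. Removal replicate 1, the sole removal library of set B, was the lowest removal library for both ligands, though it was not flagged as outlying. The tests of the ligands and the counts of pathway genes in the removal group are given with and without it. It was singled out on the values of the ligands themselves, so results without it are descriptive and not independent evidence. The tissue label could be checked on 1 of 12 listed keratinocyte markers, Krt10, which had 81960 to 187178 normalised counts in every library.

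The promoter of Areg is shown because transcripts of factors known to bind cAMP-response and AP-1 elements, such as Atf3, Jun and Fos, were also measured and fell with the ligature. The 250 bases before its start, from RefSeq (GRCm38.p6, chr5:91139349-91139598, plus strand), read as follows, with the cAMP-response element TGACGTCA and the TATA box TATAAA in capitals.
Areg: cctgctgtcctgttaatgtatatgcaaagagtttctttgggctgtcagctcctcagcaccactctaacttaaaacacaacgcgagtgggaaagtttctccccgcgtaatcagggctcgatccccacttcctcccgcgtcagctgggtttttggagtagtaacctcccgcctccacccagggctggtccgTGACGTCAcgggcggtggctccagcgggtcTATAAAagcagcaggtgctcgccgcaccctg
The cAMP-response element began 61 bases and the TATA box 31 bases before the start. Searched on both strands, TGACGTCA was present in 1.62% of 27025 mouse promoters of the same length, and TATAAA in 13% of them. The AP-1 element TGANTCA (6.87% of promoters) and the EGR1 element GCGNGGGCG (4.65%) had 0 matches in this window. A match describes letters and does not show binding. Any link between Atf3, Jun or Fos and the level of Areg was not tested, and the promoter of Hbegf is not shown here.

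By group mean, Areg transcripts were lowest with the ligature in place, intermediate after removal and highest in naive epithelium. In normalised read counts (raw counts divided by the library's deposited size factor), Areg stood at 50.2, 121.5, 86.1 and 121.9 in removal replicates 1 to 4. It stood at 47.7, 47.7 and 42.8 in ligature replicates 1 to 3, and at 111.8, 159.8, 124.1 and 127.4 in naive replicates 1 to 4. The ligature libraries lay within a narrow band below every naive library. The removal libraries were spread out: replicates 2 and 4 lay among the naive libraries, replicate 3 lay between the groups, and replicate 1 lay just above the ligature libraries. In bulk tissue, fewer cells making a transcript and less of it per cell cannot be told apart.

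Hbegf followed the same order of group means. Its normalised counts were 673.3, 1146, 924.3 and 1177 in removal replicates 1 to 4. They were 809.5, 566.3 and 623.1 in ligature replicates 1 to 3, and 1284, 1812, 1433 and 1913 in naive replicates 1 to 4. Every ligature and every removal library lay below every naive library. Removal replicate 1 lay among the ligature libraries, and the other removal libraries lay above them.

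**Figure D1:**
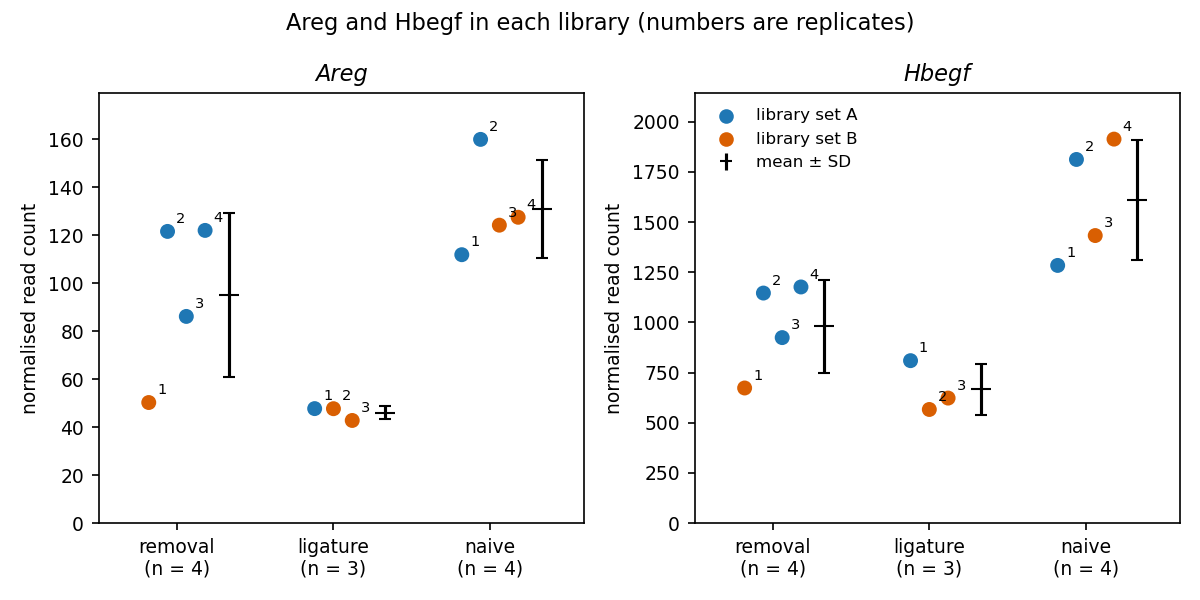
Normalised read counts (vertical axis, from 0) of Areg and Hbegf in the removal, ligature and naive libraries; points are libraries coloured by library set and numbered by replicate, and bars are group mean ± SD. Areg in the ligature libraries is between 42.8 and 47.7, and removal replicate 1, at 50.2 for Areg and 673.3 for Hbegf, is the lowest removal library for both genes.

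Counting error was larger for Areg, which had 45 to 165 raw counts per library, than for Hbegf, which had 582 to 2177. The exact Poisson 95% interval of Areg in removal replicate 1 was 36.7 to 67.2 normalised counts, below the interval of removal replicate 3 (68.2 to 107.3) and overlapping that of ligature replicate 2 (35.3 to 63.0). For Hbegf the interval of removal replicate 1 was 620.6 to 729.3, below that of removal replicate 3 (863.1 to 988.7). The removal libraries thus differed among themselves beyond counting error for both genes; these intervals cover counting error only.

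Per kilobase of the protein-coding transcript annotated in GENCODE M21 (1215 bases for Areg, 2375 for Hbegf), Hbegf was the more abundant ligand in every group. The level of Hbegf per kilobase was 413 ± 98.3 normalised counts in removal, 281 ± 53.6 in ligature and 678 ± 126 in naive libraries (SD, n = 4, 3 and 4). That of Areg was 78.2 ± 28.2 in removal, 37.9 ± 2.34 in ligature and 108 ± 16.9 in naive libraries. The ratio of these mean levels, Hbegf over Areg, was 5.28 in removal, 7.40 in ligature and 6.30 in naive libraries.

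With the ligature in place, both ligands fell relative to naive epithelium. Areg averaged 46.1 ± 2.84 normalised counts in ligature libraries and 130.8 ± 20.5 in naive libraries (SD, n = 3 and 4), a difference of -1.50 ± 0.30 on the log2 scale (SE; quasi-likelihood test of edgeR, adjusted p = 0.00192). Hbegf averaged 666 ± 127 in ligature libraries and 1610 ± 300.2 in naive libraries, a difference of -1.27 ± 0.21 on the log2 scale (edgeR, adjusted p = 0.000601). Of the 176 genes tested, 56.8% were called lower in this comparison, so a lower call for both members is close to the rule in this table. By size of fall from the largest, Areg ranked 17 and Hbegf ranked 23 of 176. Every ligature library was below every naive library for either gene, as was true of 48.9% of genes in that direction.

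Both falls were present within each library set. In set A, the mean log2 normalised count of Areg differed by -1.47 in ligature minus naive libraries (n = 1 and 2), and in set B by -1.46 (n = 2 and 2). For Hbegf the difference of ligature minus naive was -0.91 in set A and -1.48 in set B. Scaling with TMM factors over the table put the median of all genes tested at -0.02 on the log2 scale, against -0.38 with the deposited factors, and moved the split of calls to 64 higher and 50 lower, against 50 higher and 100 lower. On the TMM scale Areg stood at -1.14 and Hbegf at -0.92, and both were still called (edgeR adjusted p = 0.00328 and 0.000773). A change of factors shifts all genes nearly alike, so the distance of both ligands below the median of all genes tested hardly depends on it. That median is of genes selected for differences between these groups, and it is not a level of no change.

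After removal, Hbegf remained lower than in naive epithelium, while Areg did not pass the test. Hbegf averaged 980 ± 233 normalised counts in removal libraries and 1610 ± 300.2 in naive libraries (SD, n = 4 each), a difference of -0.72 ± 0.19 on the log2 scale (SE; edgeR, adjusted p = 0.0139). Areg averaged 94.95 ± 34.2 in removal libraries and 130.8 ± 20.5 in naive libraries, a difference of -0.46 ± 0.26 on the log2 scale (edgeR, adjusted p = 0.151). In this comparison 24.4% of the 176 genes were called lower, and 27.8% had every removal library below every naive library, as Hbegf had. The SD of Areg in the removal group was 36.0% of its mean, against 6.17% in the ligature group and 15.7% in the naive group.

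Leaving out removal replicate 1 brought both ligands nearer to the naive level. Without removal replicate 1 the log2 fold change of Areg was -0.25 (edgeR adjusted p = 0.33), and that of Hbegf was -0.57 (edgeR adjusted p = 0.0294). With a term for the library sets, Areg was called lower after removal (-0.59, edgeR adjusted p = 0.0426). In set A the difference of removal minus naive was -0.30 for Areg and -0.50 for Hbegf (n = 3 and 2), and in set B it was -1.31 and -1.30 (n = 1 and 2). The part of the library set in the position of removal replicate 1, the sole removal library of set B, was not tested. With TMM factors the split of calls in this comparison was 50 higher and 22 lower, against 23 higher and 43 lower with the deposited factors. The median log2 fold change of all genes tested was 0.03 and -0.17 on these scales, and Hbegf stayed called on the TMM scale at -0.52 (edgeR adjusted p = 0.022).

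Relative to the ligature group, Areg rose after removal and Hbegf did not pass the test. The mean of Areg was 94.95 ± 34.2 normalised counts in removal libraries and 46.1 ± 2.84 in ligature libraries (SD, n = 4 and 3), a difference of 1.05 ± 0.30 on the log2 scale (SE; edgeR, adjusted p = 0.0276). That of Hbegf was 980 ± 233 in removal libraries and 666 ± 127 in ligature libraries, a difference of 0.56 ± 0.21 on the log2 scale (edgeR, adjusted p = 0.0701). Here 17% of the 176 genes were called higher, and Areg ranked 11 from the largest rise and Hbegf 31. Every removal library was above every ligature library for Areg, as for 23.3% of genes, by a margin of 50.2 in removal replicate 1 against 47.7 in ligature replicates 1 and 2.

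Single libraries decided these calls, and most other calls of this comparison. Without removal replicate 2 or 4 or ligature replicate 1 or 2, 0 of all genes tested were called. The Areg call was lost without removal replicate 2 (0.91), removal replicate 4 (0.90), ligature replicate 1 (1.07), ligature replicate 2 (1.07) or ligature replicate 3 (0.99), at edgeR adjusted p = 0.0607 to 0.0965. Without removal replicate 1, Hbegf was called higher (log2 fold change 0.70, edgeR adjusted p = 0.0145), and Areg stood at 1.25 (edgeR adjusted p = 0.00342). In set A removal minus ligature was 1.17 for Areg and 0.41 for Hbegf (n = 3 and 1), and in set B it was 0.15 and 0.18 (n = 1 and 2). With TMM factors the calls split into 17 higher and 12 lower and with median-of-ratios factors into 16 higher and 30 lower, against 30 higher and 5 lower with the deposited factors. The Areg call held on both of those scales, at 0.87 and 0.82.

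The position of each removal library between the other groups showed the spread directly. On the log2 scale, with the ligature mean set to 0% and the naive mean to 100%, Areg in removal replicates 1 to 4 stood at 8.46%, 93.7%, 60.3% and 94.0% of the way. Hbegf in the same libraries stood at 2.51%, 62.9%, 38.5% and 65.9%. The removal libraries thus had the same order for both genes, and Areg lay nearer to naive than Hbegf did in each of the 4. All 4 were placed against the same ligature and naive means, so their agreement in this is not independent evidence. Whether the genes differed was tested on the ratio of the ligands.

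The deposited batch-corrected values moved Areg down in the libraries of set A and up in those of set B. Areg in removal replicates 1 to 4 became 66.2, 111.7, 76.2 and 112.1, in ligature replicates 1 to 3 it became 37.6, 64.0 and 59.8, and in naive replicates 1 to 4 it became 102.0, 150.2, 129.9 and 132.8. The SD of Areg became 23.9 in removal (34.2 before), 14.2 in ligature (2.84 before) and 20.0 in naive libraries (20.5 before). The correction narrowed the removal group and widened the ligature group for this gene. For Hbegf the ligature libraries drew together to 705.7 to 752.4 (SD 23.4, against 127 before), and removal replicate 1, at 793.7, lay above them. After the correction Areg in removal replicate 1 stood at 26.2% and Hbegf at 11.2% of the way from the ligature to the naive mean.

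**Figure D2:**
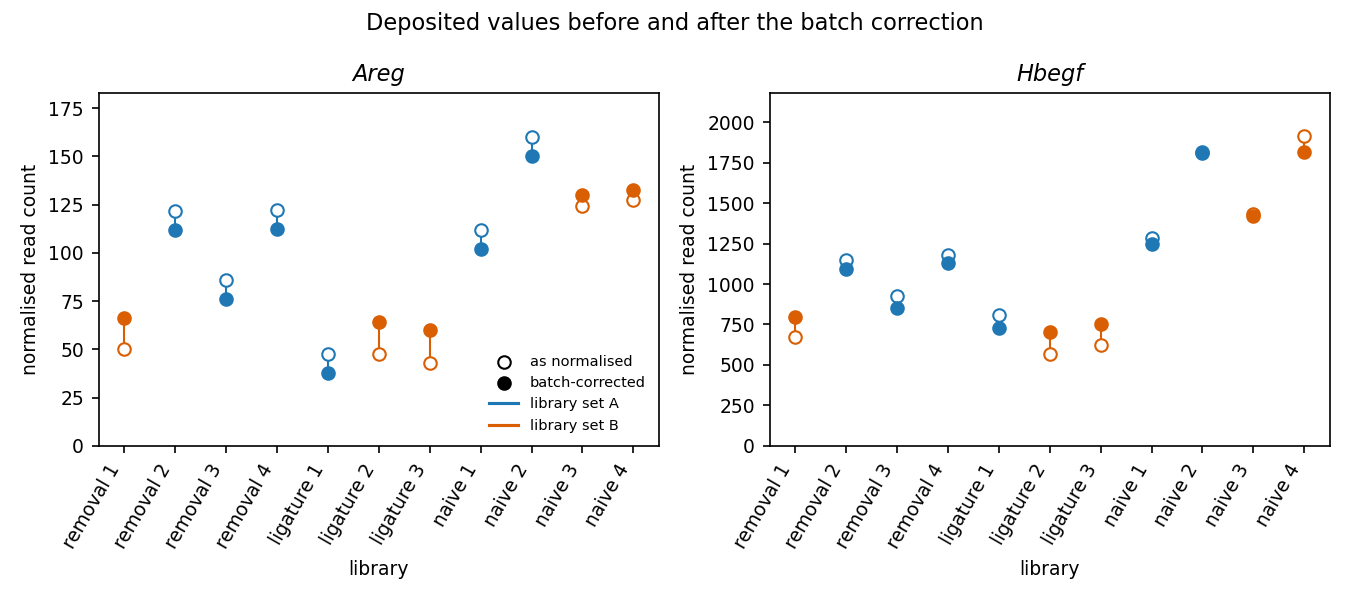
Areg and Hbegf in each library (horizontal axis) as normalised read counts (vertical axis, from 0), before (open) and after (filled) the deposited batch correction, coloured by library set. Areg in ligature replicates 2 and 3 and removal replicate 1, all of set B, moves up, to 64.0, 59.8 and 66.2, and that of ligature replicate 1, of set A, moves down to 37.6.

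The ratio of the ligands within a library hardly depends on its scaling, and the groups overlapped in it. As log2 of Areg + 1 over Hbegf + 1 it was -3.72, -3.23, -3.41 and -3.26 in removal replicates 1 to 4. It was -4.06, -3.54 and -3.83 in ligature replicates 1 to 3, and -3.51, -3.49, -3.52 and -3.90 in naive replicates 1 to 4. Removal replicates 2, 3 and 4 had the highest ratios of all libraries, and removal replicate 1 lay among the ligature and naive libraries.

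Removal minus naive was 0.20 (exact permutation test, two-sided, p = 0.2, adjusted p = 0.3 over 3 comparisons). Without removal replicate 1 it was 0.31 (exact permutation p = 0.0571, the smallest that 3 libraries against 4 allow), and the remaining removal libraries all lay above every naive library. Both of these differences include naive replicate 4, which at -3.90 lay far below the other naive libraries and widens them. Ligature minus naive was -0.21 (exact p = 0.343, adjusted p = 0.343), and removal minus ligature was 0.41 (exact p = 0.114, adjusted p = 0.3), or 0.51 without removal replicate 1 (exact p = 0.1, the smallest that 3 libraries against 3 allow). With 3 libraries against 4 the smallest p such a test allows is 0.0571, and with 4 against 4 it is 0.0286. Adjusted over the 3 comparisons, the smallest p is 0.0571 for each, so none of them could pass 0.05. A fall of Areg that differs from that of Hbegf was therefore not detectable, and equal changes are not shown either. In set A the mean log2 ratio was -3.30 in removal, -4.06 in ligature and -3.50 in naive libraries (n = 3, 1 and 2), and in set B it was -3.72, -3.69 and -3.71 (n = 1, 2 and 2).

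**Figure D3:**
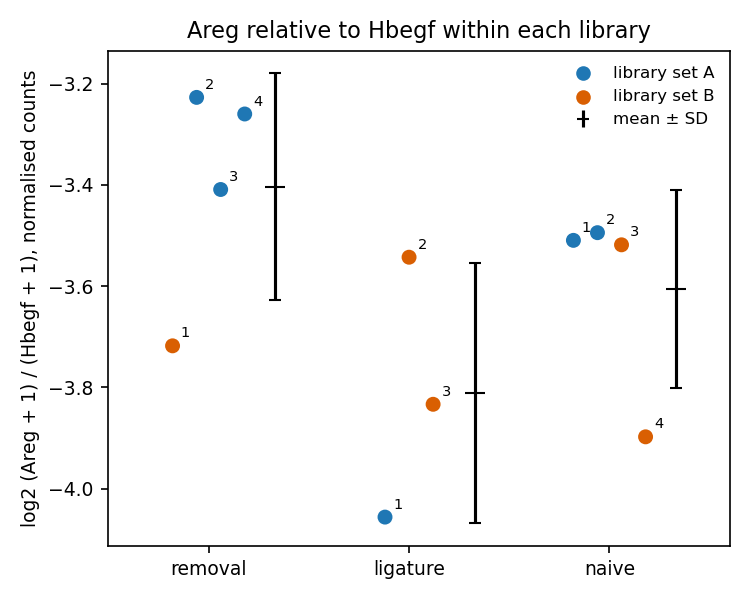
Log2 of (Areg + 1) over (Hbegf + 1) in normalised counts (vertical axis, not from 0) in each removal, ligature and naive library, coloured by library set, with group mean ± SD. Removal replicates 2, 3 and 4 are highest, at -3.23 to -3.41, and the ligature libraries reach from -4.06 to -3.54.

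Around the ligands, 83 genes of the EGF receptor pathway were listed with earlier results of these data known. Of them 18 were in the table, Areg and Hbegf included. Counts of these genes, here and below, are therefore not independent evidence on the pathway. The other 5 of 7 ligands, the 4 ErbB receptors and the 17 adaptors and kinases are not analysed here. With the ligature in place, 14 of the other 16 pathway genes fell and 0 rose, where 56.8% of all 176 genes tested were called lower and 28.4% higher, with a median log2 fold change of -0.73 against -0.38 over all genes. After removal, 12 of the 16 were lower than naive and 0 higher (median -0.47, against -0.17), where 24.4% of all genes were called lower and 13.1% higher. Against ligature libraries 5 of the 16 were higher and 0 lower (median 0.36, against 0.20), where 17% of all genes were called higher and 2.84% lower. Without removal replicate 1 these counts were 11 lower than naive and 5 higher than in ligature libraries. Of all genes tested, 32 were lower and 38 higher in these comparisons. With TMM factors the pathway counts were 12 lower and 1 higher for ligature, where 50 of all genes were lower and 64 higher. For removal against naive they were 6 lower, where 22 of all genes were. For removal against ligature they were 1 higher and 1 lower, where 17 of all genes were higher and 12 lower. The count for removal against ligature was 0 of 16 when removal replicate 2, removal replicate 4 or any ligature library was left out. In those fits 0 of all genes tested were called, or 2 higher and 1 lower without ligature replicate 3.

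Rhbdf1 was the measured carrier of ligand release. It encodes the inactive rhomboid iRhom1, which helps to bring ADAM17 to the cell surface. Its normalised counts were 1680, 2072, 1982 and 2139 in removal replicates 1 to 4, 2289, 1642 and 1609 in ligature replicates 1 to 3, and 2541, 2380, 1992 and 2134 in naive replicates 1 to 4. The groups overlapped in all 3 comparisons. Its log2 fold change was -0.29 ± 0.14 for ligature against naive (edgeR adjusted p = 0.0683) and -0.20 ± 0.13 for removal against naive (edgeR adjusted p = 0.205), and TMM factors turned both signs (0.06 and 0.0018).

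The immediate early genes listed as transcription factors that EGF receptor signals are known to induce were, like the ligands, lower with the ligature. They are called factors here for short, though Ier3 is a stress-induced regulator and not a transcription factor. All 10 measured members of 20 listed fell (9 with TMM factors), where 56.8% of all genes tested were called lower (50 of 176 with TMM factors), at log2 fold changes of -2.04 to -0.57. Atf3, a stress-induced factor that binds cAMP-response elements, averaged 673 ± 205 normalised counts in removal, 422 ± 114 in ligature and 1731 ± 503 in naive libraries (SD, n = 4, 3 and 4). Egr1, a zinc finger factor, averaged 12226 ± 1863 in removal, 8899 ± 683 in ligature and 17866 ± 1210 in naive libraries. Fosb, a partner of Jun proteins in AP-1, averaged 9335 ± 1997 in removal, 6368 ± 1752 in ligature and 16302 ± 1724 in naive libraries. Every ligature library lay below every naive library for each of the 10, as for 48.9% of all genes tested.

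After removal 8 of the 10 factors were still lower than naive, where 24.4% of all genes tested were called lower. With TMM factors 4 of the 10 were lower, where 22 of all genes were. The count was 6 without removal replicate 3 (25 of all genes lower), 6 without naive replicate 1 (29) and 8 without removal replicate 1 (32). The log2 fold change was -1.36 ± 0.26 for Atf3, -0.80 ± 0.18 for Fosb, -0.55 ± 0.12 for Egr1 and -0.51 ± 0.10 for Junb. The calls of Fos (-0.44) and Jun (-0.38) were lost with TMM and with median-of-ratios factors, and those of Ier2 (-0.39) and Ier3 (-0.49) with TMM factors. Klf6, a zinc finger factor of injured epithelia, stood at -0.16 ± 0.11 and Cebpb, a factor of inflammatory and differentiation genes, at -0.32 ± 0.14, and neither passed the test (edgeR adjusted p = 0.237 and 0.0743). Against the ligature group 4 of the 10 rose, Klf6, Fos, Egr1 and Jun, by 0.55, 0.49, 0.46 and 0.37 on the log2 scale (edgeR adjusted p = 0.0221, 0.0276, 0.0276 and 0.0352), of which 1 was called with TMM factors. The share of all genes called higher there was 17% (17 genes with TMM factors). Without removal replicate 1 the count was again 4 of the 10, where 38 of all genes were called higher. None of the 10 was called when removal replicate 2, removal replicate 4 or any ligature library was left out. In those fits 0 of all genes tested were called, or 2 higher and 1 lower without ligature replicate 3.

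The library that was lowest within the removal group was not the same for 8 of the 10 factors as for the ligands. Both ligands and 2 of the 10 factors were lowest in removal replicate 1, while the other 8 were lowest in removal replicate 3. Removal replicate 1 lay above every ligature library in 7 of the 10 factors, and removal replicate 3 in 6. The Egr1 count of removal replicate 1 was 10964, against 8143 to 9473 in ligature libraries, and its Fos count was 9795, against 6251 to 7764. For Hbegf the same library lay among the ligature libraries, and for Areg it lay just above them. The share of all genes tested with such positions was not computed, so these counts do not set the factors apart from the rest of the table.

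Among feedback inhibitors, Socs3, which restrains cytokine receptors and was listed here with the receptor inhibitors, fell with the ligature (-1.21 ± 0.23 on the log2 scale) and after removal (-0.85 ± 0.21) (edgeR adjusted p = 0.00159 and 0.0124). The removal call was lost with TMM factors (-0.66, adjusted p = 0.0503). Dusp1, a phosphatase that switches off MAP kinases, averaged 7950 ± 1241 normalised counts in removal, 6926 ± 910 in ligature and 10060 ± 1478 in naive libraries. It fell with the ligature (-0.54 ± 0.15, edgeR adjusted p = 0.00751), a call lost with TMM factors (-0.17), and stood at -0.34 ± 0.14 after removal (edgeR adjusted p = 0.0702). The other 14 of 16 listed inhibitors are not analysed here.

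The measured effectors did not move alike. Phlda1, a pleckstrin homology-like domain protein induced by growth factors, fell with the ligature (-1.57 ± 0.23 on the log2 scale) and after removal (-0.76 ± 0.20), and rose by 0.82 ± 0.23 in removal against ligature libraries (edgeR adjusted p = 0.000341, 0.0151 and 0.0276). That rise was not called with TMM factors (0.64, adjusted p = 0.0532). Ptgs2, the inducible prostaglandin synthase, was low, at 27.2 to 32.1 normalised counts in removal, 14.5 to 33.1 in ligature and 39.0 to 107.0 in naive libraries. Its log2 fold change was -1.70 ± 0.39 with the ligature and -1.34 ± 0.34 after removal (edgeR adjusted p = 0.00332 and 0.0124).

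Vegfa, the vascular growth factor, stood at -0.07 ± 0.12 with the ligature (edgeR adjusted p = 0.601), a value that TMM and median-of-ratios factors turned to 0.29 and 0.28, both called higher. After removal it fell by 0.32 ± 0.11 (edgeR adjusted p = 0.042), a call lost with TMM factors (-0.12) and without removal replicate 1 (-0.29, edgeR adjusted p = 0.0901).

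**Figure D4:**
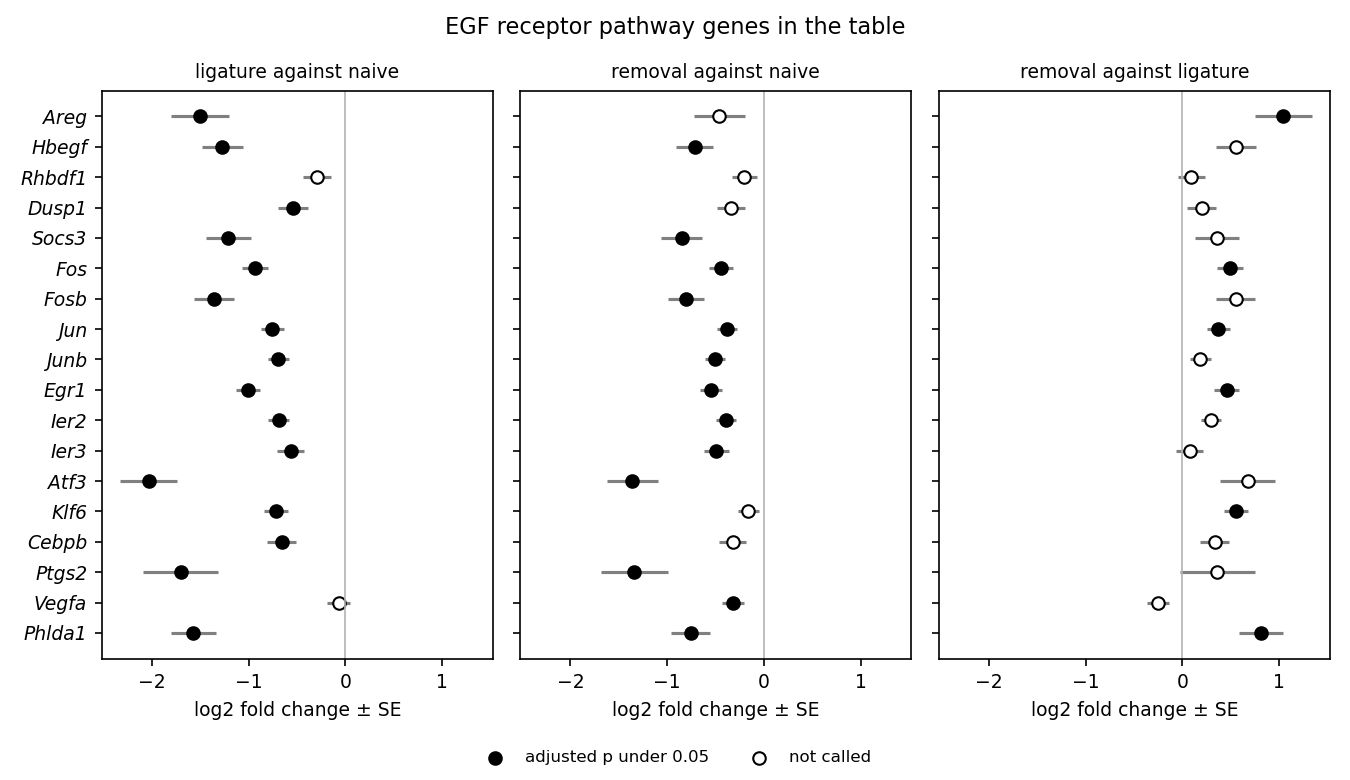
Log2 fold change ± SE (horizontal axis; edgeR, deposited size factors) of the 18 EGF receptor pathway genes of the table, 1 panel per comparison, with genes called at an adjusted p under 0.05 as filled points. With the ligature 16 of the 18 are called lower, where 56.8% of all 176 genes tested are. With TMM factors 14 are lower and 1 higher, where 50 of all genes are lower and 64 higher. Among the 18, Areg has the largest value of removal against ligature, 1.05.

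Few marker genes of other cell types were in this selected table, and absence from it does not show low expression. Of 38 listed markers of cell types other than keratinocytes, 1 was in the table, the macrophage marker Cd68. Its normalised counts were 208.2 to 237.8 in removal, 170.4 to 190.6 in ligature and 221.9 to 335.7 in naive libraries. Cd68 fell with the ligature (-0.67 ± 0.16, edgeR adjusted p = 0.00402; -0.31 and not called with TMM factors) and stood at -0.37 ± 0.15 after removal (edgeR adjusted p = 0.061). Krt10, a keratin of suprabasal keratinocytes, rose with the ligature by 0.64 ± 0.22 (edgeR adjusted p = 0.0182) and stood at 0.50 ± 0.21 after removal (edgeR adjusted p = 0.0683), which was called without removal replicate 1 (0.65, edgeR adjusted p = 0.0256) and with TMM factors (0.70, edgeR adjusted p = 0.0108). The part of either in the change of Areg or Hbegf was not tested.

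Likeness of pattern was measured as the root mean square difference, over the 11 libraries, of log2(normalised count + 1) after centring each gene on its own mean, among 163 other genes with a mean of at least 20 normalised counts. The gene nearest to Areg was Hbegf, at 0.25. It was followed by Hspa1a, the inducible Hsp70 chaperone (0.29), Phlda1 (0.32), Egr1 (0.34) and Dnajb1, an Hsp40 co-chaperone (0.35). Hspa1a has a near-identical copy, Hspa1b, and how reads were divided between the copies is uncertain.

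The nearest genes to Hbegf were Alpk2, an alpha-kinase (0.21), Nfkbia, the inhibitor IkappaB-alpha (0.21), Egr1 (0.22), Tmem95, a membrane protein known from sperm (0.23), and Areg (0.25). Nfkbia averaged 2750 ± 239 normalised counts in removal, 2043 ± 112 in ligature and 4133 ± 618 in naive libraries (SD, n = 4, 3 and 4). Of the 9 genes shown in the heat map, Tmem95 was the one whose removal replicate 1 lay below every ligature library, at 116.1 against 127.4 to 210.5. Hspa1a in the same library was 1130, above the ligature libraries, which had 569.2 to 871.4. The genes of the table were selected for differences between these groups, so likeness to either ligand is common in it by construction.

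**Figure D5:**
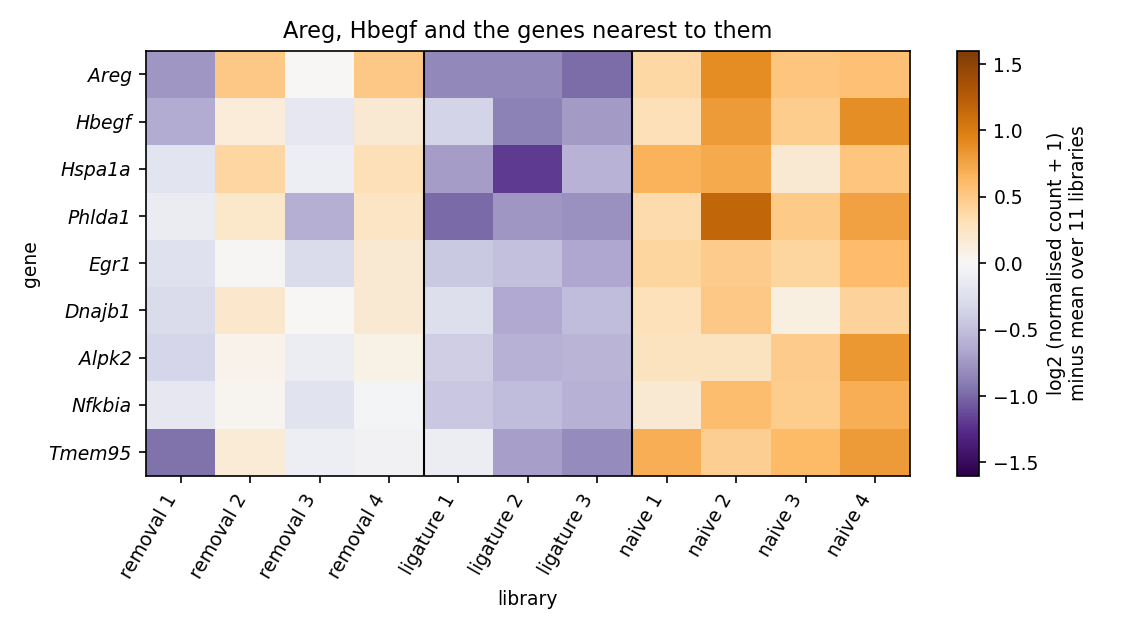
Log2(normalised count + 1) minus each gene's mean over the 11 libraries (colour) for Areg, Hbegf and the genes nearest to either (rows), in removal, ligature and naive libraries (columns). The naive libraries are above the mean for every gene shown, and Areg, Hbegf, Hspa1a, Dnajb1, Alpk2 and Tmem95 have their lowest removal value in replicate 1.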

How the data were processed

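RNA sequencing libraries of Dispase-separated mouse gingival epithelium, polyA-selected and strand-preserving per the labels' protocols, were analysed from 1 deposited table with 178 named genes and 993161 empty rows. Raw counts per gene were deposited by the authors as whole numbers. The authors also deposited a normalised signal, which matched the raw counts after division by a single size factor for each library (0.757 to 1.21, deviation at most 0.0032). The batch-corrected values deposited by the authors, treated as a score because 7 were below 0, use the same linear scale. Per the submitters' processing notes, DESeq2 1.36.0, HTSeq 2.01, TopHat2 2.1.1 and cutadapt 2.10 were used with GRCm39. Their roles, the strand setting and the correction method were not given in the sources used here.

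The raw counts went into edgeR 4.0.16 under R 4.3.3, with its quasi-likelihood F test, deposited size factors, a mean per group over all 11 libraries, the default expression filter (2 genes left out) and Benjamini-Hochberg adjustment over 176 genes, called under 0.05. The SE is the absolute log2 fold change over the square root of F. Library sets were the split, of 957 with at least 3 libraries a set, that made corrected values linear in normalised counts within sets (median residual 4.2e-05% of the mean; 1.71% for the next). Ratios used exact permutation tests (scipy 1.17.1). Libraries of a group differed beyond counting noise (chi-square per degree of freedom at least 20.4), so none was merged. Alternatives were TMM and median-of-ratios factors, DESeq2 1.42.0, other count filters, only the groups compared, a library set term, a replicate block and each library left out. Named genes were the ligands, listed pathway genes in the table and the 5 genes nearest in pattern to each ligand. The members and lists were chosen with earlier results of these data known. The edgeR code was tested on simulated data.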

Additional observations from a re-analysis of the deposited data

Results flagged for a closer look

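In 4 naive libraries the log2 ratio of Areg over Hbegf was -3.90 in replicate 4, far from the other 3, which lay between -3.52 and -3.49; the gap was large for a group of that size. Vegfa had 1462 normalised counts in naive replicate 1, against 1320 to 1343 in the other naive libraries. Of the groups of 4 libraries checked in this way, 52 in all, chance flags about 1 in 20.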

How the results depend on the processing

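Over 19 alternatives each, the falls of Areg (-1.57 to -1.14) and Hbegf (-1.44 to -0.92) with the ligature and of Hbegf after removal (-0.82 to -0.52) stayed called. The fall of Areg after removal was called with a library set term (-0.59); with single libraries left out it was -0.60 to -0.25. The rise of Areg in removal against ligature libraries was not called with only those groups in the fit (1.05, adjusted p = 0.0564) or with the replicate block (0.91, adjusted p = 0.087); with single libraries left out it was 0.90 to 1.25. The rise of Hbegf there was called with DESeq2 (0.56, adjusted p = 0.0367) and was 0.45 to 0.72 with single libraries left out. The cause of these changes was not tested.

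Genes called after removal against naive numbered 66, 126 with a library set term and 38 to 78 with 1 library left out (38 without removal replicate 3, 42 and 43 without naive replicates 4 and 1). Against ligature they numbered 35, 8 with the replicate block and 0 to 49 with 1 library left out. The edgeR count was 0 without removal replicate 2 or 4 or ligature replicate 1 or 2, where 49 to 72 genes had an unadjusted p under 0.05. Pathway genes called, ligands included, were 7 with TMM factors for removal against naive, against 13. For removal against ligature they were 3 with TMM, with median-of-ratios factors and with only those groups, 2 with the replicate block and 0 to 7 with 1 library left out, against 6. The replicate block moved no other call of the ligands; same-numbered libraries share only a number (deviations from group means correlated at -0.477 to 0.536).

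Signs of small values turned as follows. With TMM and median-of-ratios factors, Rhbdf1 was 0.063 and 0.061 and Vegfa 0.29 and 0.28 for ligature against naive, where Vegfa was -0.21 to 0.052 with 1 library left out. For removal against naive with TMM, Rhbdf1 was 0.0018 and Klf6 0.043. For removal against ligature, Rhbdf1 was -0.061 with TMM, -0.11 with median-of-ratios factors and -0.035 with a library set term, and Ier3 was -0.087 and -0.14 with the same scalings and -0.0088 to 0.16 with 1 library left out. There Dusp1 was -0.0069 and Junb -0.019 with median-of-ratios factors, and Krt10 was -0.27 to 0.085 with 1 library left out. Areg, with 45 to 165 counts a library, is the less precisely measured ligand.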
